A study of Homo sapiens with 51 samples.

Results

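Expression of 9 epithelial transcription factor genes was followed in human pancreatic ductal adenocarcinoma (PDA) lines in which the zinc-finger factor OVOL2 was overexpressed. The genes were OVOL1 and OVOL2, the grainyhead-like genes GRHL1, GRHL2 and GRHL3, the ETS-family genes ELF3 and EHF, and the Krüppel-like genes KLF4 and KLF5. They were taken by symbol from a table of 25421 genes, which held a row for each of the 9. The table covered 51 bulk libraries of 3 per group, made by PLATE-seq, a plate-based method that barcodes and counts the 3′ ends of polyadenylated RNA. KP4, PANC1 and PK45H each gave 5 groups: untreated cells, cells given a lentiviral mCherry open reading frame as the negative control, cells given a lentiviral OVOL2 open reading frame, and both viruses again together with one for M2rtTA, which switches on tetracycline-inducible promoters. HPAFII and PATU8988S gave untreated groups only. The protocol calls the transduced lines Morphogenic. Transduced cells received virus at a multiplicity of infection of 2 with 8 µg/ml polybrene, and from the following day 2.5 µg/ml puromycin plus 0.6 µg/ml doxycycline, in the mCherry controls as well. Culture lasted 6 days in all, and 100 ng of RNA went into each library. Each line is a single established cell line, and the labels describe neither sorting of transduced cells nor an assay of OVOL2 protein, so a group is the whole selected culture.

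These factors are known as regulators of the epithelial state. OVOL1 and OVOL2 are repressors that act against ZEB1, itself a repressor of E-cadherin and a driver of epithelial-mesenchymal transition (EMT); the grainyhead-like factors activate genes of cell junctions, and GRHL2 and ZEB1 repress each other. ELF3 and EHF are ETS factors restricted to epithelia, and KLF4 and KLF5 act in epithelial differentiation and proliferation. In PDA, ELF3 and KLF5 are known from well differentiated tumours and KLF4 from early ductal lesions.

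Library totals ran from 1165399 to 7490556 counts, and the lowest was HPAFII replicate 2, whose effect is given wherever it touches a result. The 6 epithelial markers examined (EPCAM, CDH1, KRT7, KRT8, KRT18 and KRT19) were present in all 5 lines, with a summed level of 609 to 1200 CPM (counts scaled to a common library total) in KP4 and 5130 to 14300 in HPAFII. Markers of other cell types were low but not absent. Of the fibroblast list, COL1A1 reached 330 counts in a library, COL1A2 42 and DCN 26, and LUM and PDGFRB did not exceed 3 and 5. PECAM1 and CDH5 of endothelium reached 40 and 31 counts, and CD68 and PTPRC of leukocytes 41 and 16, while CD3E of T cells did not exceed 6. The labels describe transduction in triplicate wells and say nothing of separately grown cultures, so p-values measure the spread between these libraries, which may be technical. In bulk RNA, a change in the number of cells that express a gene and a change in its RNA per cell cannot be told apart.

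The targeted gene, OVOL2, was examined first. It lies on GRCh38 chr20:17956979-18059188 on the minus strand, where its GENCODE 29 annotation overlaps SNX5 on the same strand and MGME1 on the other. Without M2rtTA the OVOL2 libraries held 10, 7 and 4 OVOL2 counts in KP4 against 12, 7 and 0 with mCherry. The same groups held 4, 6 and 1 against 4, 16 and 2 in PANC1, and 5, 8 and 9 against 9, 1 and 5 in PK45H. The groups overlapped in all 3 lines. With M2rtTA, KP4 held 13, 62 and 9 OVOL2 counts against 2, 0 and 6 with mCherry, and PK45H held 23, 18 and 18 against 7, 3 and 12. In both lines every OVOL2 library was above every mCherry library, but 1 KP4 library held most of that line's counts. In PANC1 the counts were 6, 20 and 9 against 7, 3 and 2, and the groups overlapped in level. The labels do not give the 3′ end of the vector's transcript, and whether this 3′-end assay counts it under OVOL2 was not tested, so the OVOL2 row may miss part of the introduced OVOL2.

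On the log2 scale, OVOL2 rose with M2rtTA by 3.08 in KP4 (SE 0.92, adjusted p = 0.0272, edgeR quasi-likelihood test) and by 1.98 in PK45H (SE 0.48, adjusted p = 0.0135). It was 1.40 higher in PANC1, which did not pass (SE 0.74, adjusted p = 0.244). In KP4, OVOL2 passed the count filter only through the OVOL2 + M2rtTA libraries. In PK45H it would not have passed the filter without them. The calls in KP4 and PK45H therefore depend on a filter met by the group where OVOL2 was high. Without KP4 OVOL2 + M2rtTA replicate 2, the library with 62 counts, the KP4 difference was 1.92 and did not pass (adjusted p = 0.189). The KP4 call was also lost without mCherry + M2rtTA replicate 1 or 2, and the PK45H call without its mCherry + M2rtTA replicate 1 or 2 (highest adjusted p = 0.0615). Averaged over lines the rise was 2.15 (SE 0.44, adjusted p = 0.00021), and it passed in each of 18 fits that left out 1 library, between 1.77 and 2.55.

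A gene was called at the detection floor in a group where each of the 3 libraries held at most 3 counts. OVOL1 (chr11:65787022-65797219, plus strand), the paralog of OVOL2, was at the floor in 15 of 17 groups, that is, in every group of KP4, PANC1 and PK45H. It had 46 counts in all 51 libraries together and a count of 0 in 38 of them. Its highest count in the 45 libraries of the transduced lines was 3. In HPAFII it held 4, 7 and 7 counts and in PATU8988S 6, 7 and 1, while the untreated libraries of KP4, PANC1 and PK45H held 0. Those zeros, over 16426154, 12040966 and 19646938 counts, allow a level of up to 0.183, 0.249 and 0.153 CPM (3 counts of the total, counting error only). OVOL1 did not pass the filter on low counts in any comparison, so it was not tested and no fold change is given. With no filter it was called higher in the untreated HPAFII and PATU8988S libraries than in the others (adjusted p = 0.000241). Its locus overlaps the antisense gene OVOL1-AS1, and whether the counting used strand is not given in the sources used here.

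**Figure D1:**
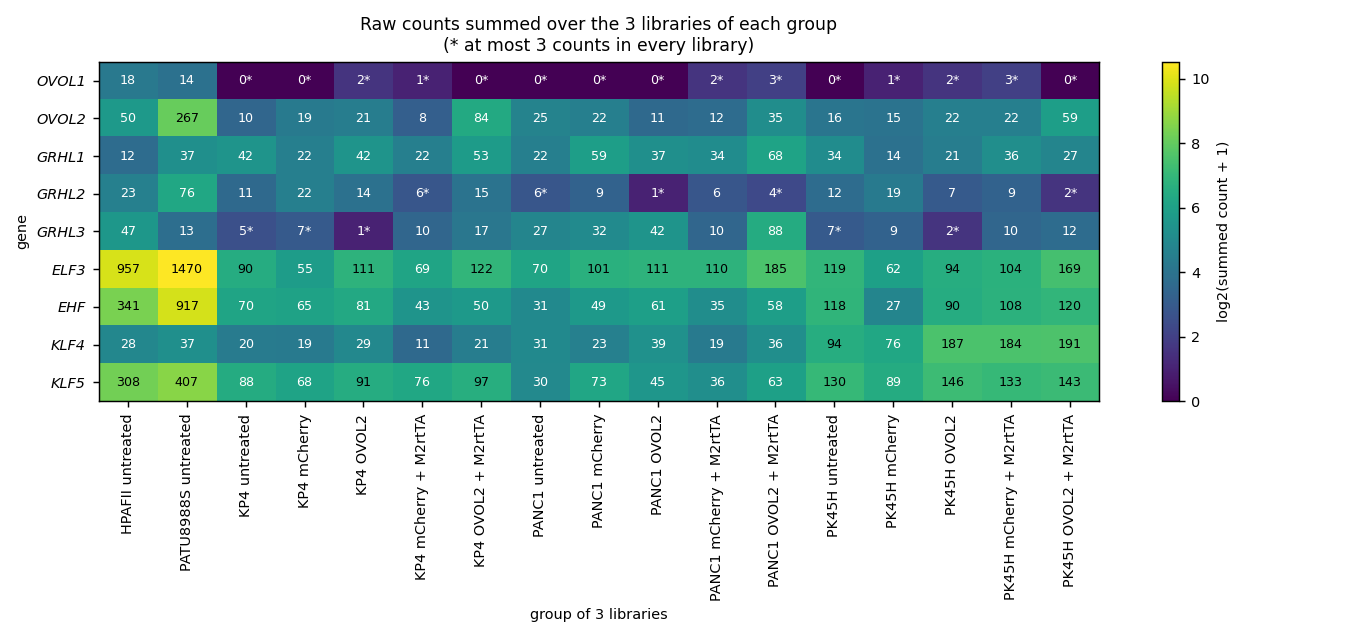
Each cell gives the raw counts of a gene (rows) summed over the 3 libraries of a group (columns), and the colour shows log2 of the sum plus 1. An asterisk marks the 25 gene and group pairs at the floor: 15 for OVOL1, 5 for GRHL2 and 5 for GRHL3, all in KP4, PANC1 and PK45H.

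GRHL2 (chr8:101492432-101669726, plus strand), the grainyhead-like factor most closely tied to ZEB1, was at the floor in 5 groups: KP4 mCherry + M2rtTA, untreated PANC1, both PANC1 OVOL2 groups and PK45H OVOL2 + M2rtTA. GRHL3 (chr1:24319322-24364482, plus strand), a grainyhead-like factor of surface epithelia, was also at the floor in 5: untreated KP4, KP4 mCherry, KP4 OVOL2, untreated PK45H and PK45H OVOL2. The other 6 genes were above the floor in all 17 groups, though not by the same margin. ELF3 (chr1:202007945-202017188, plus strand) had at least 10 counts in 51 of 51 libraries, EHF (chr11:34621093-34661057, plus strand) in 45 and KLF5 (chr13:73054976-73077542, plus strand) in 46. GRHL1 (chr2:9951693-10002277, plus strand) reached 10 counts in 28 libraries, KLF4 (chr9:107484852-107490482, minus strand) in 26 and OVOL2 in 17. Counts of this size limit what can be seen: OVOL1, GRHL2 and, outside PANC1, GRHL3 could not be tested within a line.

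**Figure D2:**
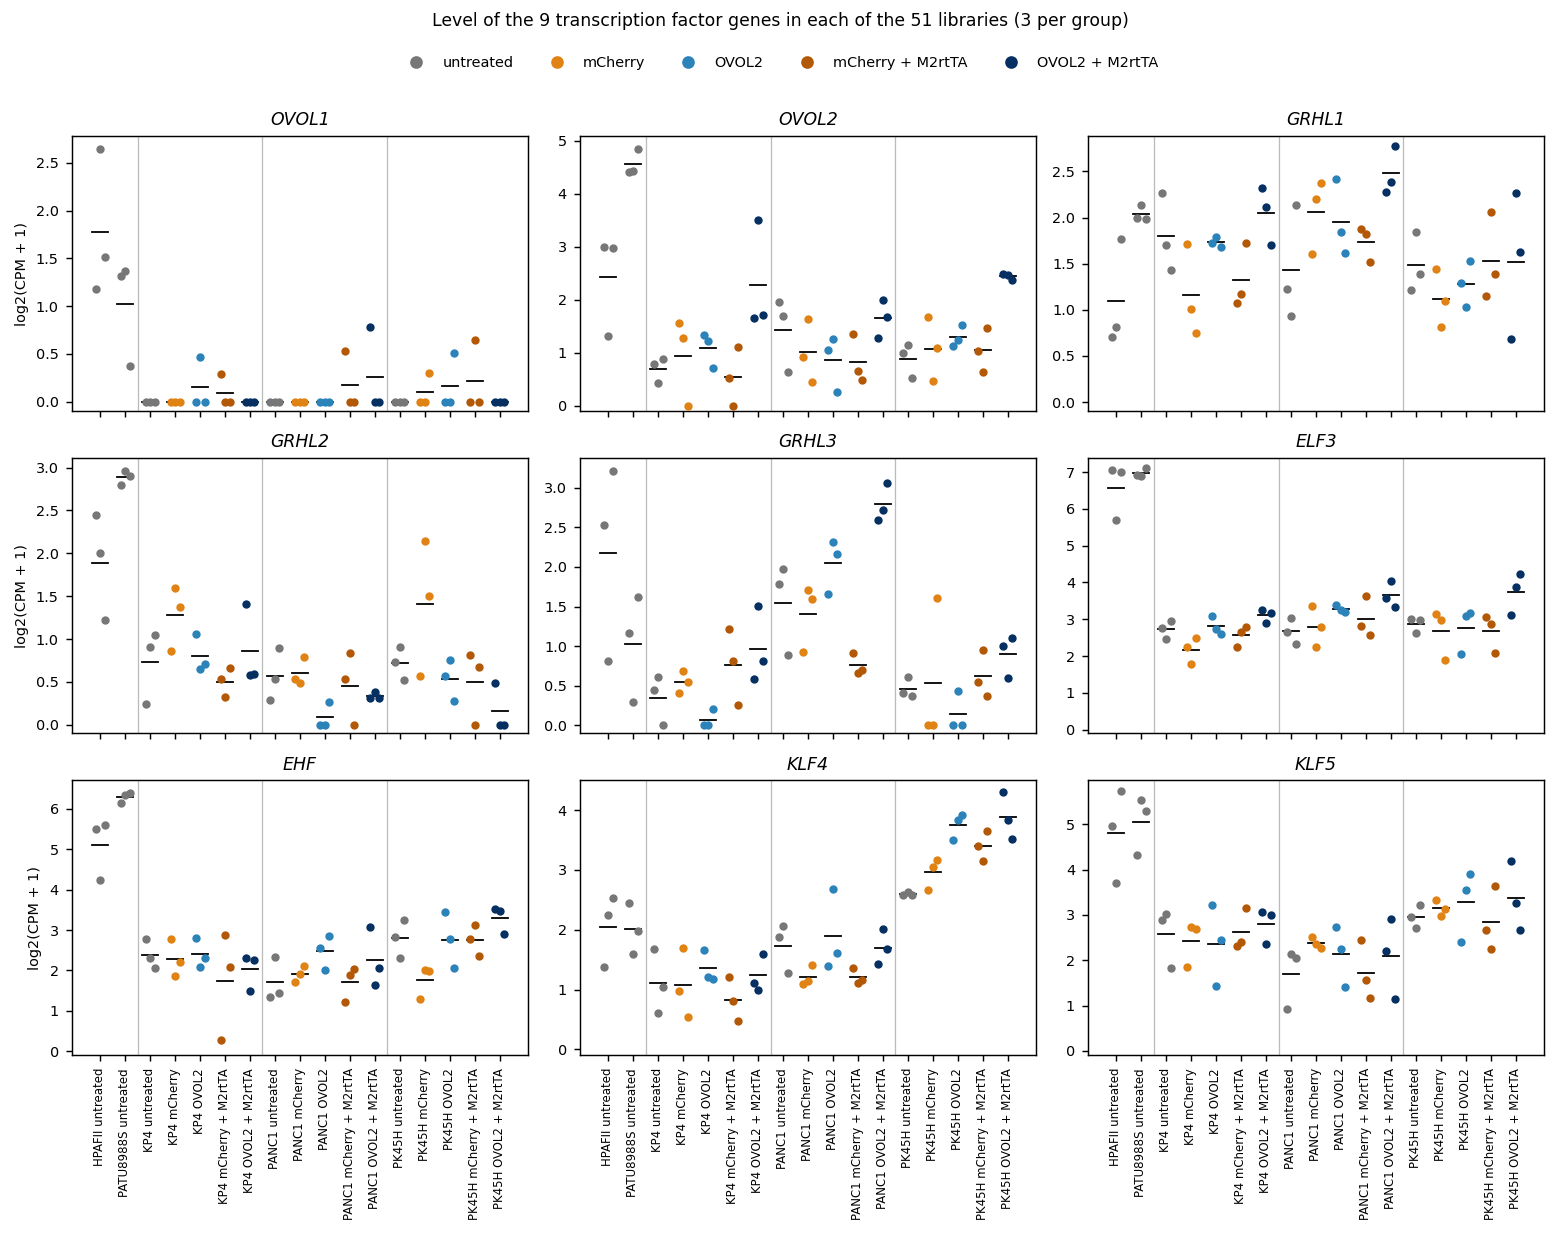
Each panel shows 1 gene, with log2(CPM + 1) of every library as a point and the mean of the 3 as a bar, by group along the x axis. ELF3, EHF and KLF5 stand highest in HPAFII and PATU8988S, KLF4 stands highest in PK45H, and GRHL3 of PANC1 is highest in the OVOL2 + M2rtTA libraries.

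Untreated lines differed in most of these genes. The mean of HPAFII and PATU8988S was above the mean of KP4, PANC1 and PK45H for 6 of the 8 genes tested, and none was called lower. The background was high: 34.8% of all genes tested passed in this comparison. ELF3 measured 131, 50.4 and 127 CPM in the HPAFII libraries and 121, 118 and 137 in PATU8988S, against 3.98 to 7.23 in the 9 untreated libraries of the other lines. The ELF3 difference was 4.31 on the log2 scale (SE 0.20, adjusted p = 1.05e-09), and the groups did not overlap. EHF measured 36.5 ± 16.1 CPM (SD, n = 3) in HPAFII and 77.8 ± 7.39 in PATU8988S, against 4.33 ± 1.36 in KP4, 2.44 ± 1.41 in PANC1 and 6.20 ± 2.25 in PK45H. KLF5 was at 31.5 ± 20.1 CPM in HPAFII and 34.2 ± 13.8 in PATU8988S, and between 2.47 and 6.89 on average in the other lines. The fitted differences were 3.76 for EHF (SE 0.24, adjusted p = 2.16e-08) and 2.92 for KLF5 (SE 0.32, adjusted p = 4.89e-06). OVOL2 was 3.47 higher (SE 0.32, adjusted p = 1.1e-06), GRHL2 2.82 higher (SE 0.38, adjusted p = 3.95e-05) and GRHL3 1.90 higher (SE 0.55, adjusted p = 0.014). GRHL2 passed the count filter only through HPAFII and PATU8988S libraries, and no untreated library of the other lines exceeded 1.06 CPM. Its place among the 6 therefore follows in part from the filter. GRHL3 lost this call without HPAFII replicate 3 or PATU8988S replicate 3 (highest adjusted p = 0.0761). Its untreated level was 4.59 ± 3.76 CPM in HPAFII (SD, n = 3) and 1.18 ± 0.92 in PATU8988S. In PANC1 it was 2.08 ± 1.09, above PATU8988S on average, and in KP4 and PK45H 0.30 ± 0.27 and 0.38 ± 0.12. GRHL1 differed by 0.05 (adjusted p = 0.936) and KLF4 by 0.41 (adjusted p = 0.366) and neither passed. Without the shallow HPAFII replicate 2 the same number, 6, passed.

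HPAFII and PATU8988S differed from each other in 2 of the 8 genes tested. PATU8988S had 20.4, 20.6 and 27.8 CPM of OVOL2 against 6.97, 1.5 and 6.93 in HPAFII, with no overlap. The difference was 1.98 (SE 0.43, adjusted p = 0.00496), or 1.70 without HPAFII replicate 2 (adjusted p = 0.00886). EHF was 1.02 higher in PATU8988S (SE 0.34, adjusted p = 0.0466), and this passed in 1 of 6 fits that left out 1 library: without HPAFII replicate 2 it was 0.75 (adjusted p = 0.11). GRHL3 ran the other way, at 4.75, 0.75 and 8.26 CPM in HPAFII against 1.25, 0.226 and 2.07 in PATU8988S. Those groups overlapped, and the difference of −2.16 did not pass (adjusted p = 0.0579). It was −2.52 and passed without HPAFII replicate 2 (adjusted p = 0.0235). Of all genes tested, 20.2% passed between these lines.

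Among the 3 transduced lines, each untreated line was set against the mean of the other pair, a comparison added after the levels had been seen. KLF4 was lower in KP4 by 1.5 (SE 0.47, adjusted p = 0.0339) and higher in PK45H by 1.48 (SE 0.40, adjusted p = 0.0133). The untreated libraries held 2.19, 0.52 and 1.06 CPM of KLF4 in KP4, 2.67, 3.16 and 1.42 in PANC1 and 4.97, 5.21 and 4.97 in PK45H. PK45H did not overlap the others, and KP4 and PANC1 overlapped. The KP4 call held in 2 of 9 fits that left out 1 library, and the PK45H call in 9 of 9. GRHL3 was higher in PANC1 by 2.59 (SE 0.71, adjusted p = 0.0157), with 11, 13 and 3 counts against 0 to 3 in the other lines. It lost the call without PANC1 replicate 1 or 2 (highest adjusted p = 0.0827). In each of these 3 comparisons 1 of 8 tested genes was called, whereas 22.4%, 24.1% and 25.6% of all genes passed for KP4, PANC1 and PK45H. In the order of untreated ELF3 levels, PATU8988S and HPAFII overlapped, as did PK45H, KP4 and PANC1, while a wide gap lay between those sets. EHF had the order PATU8988S, HPAFII, PK45H, KP4, PANC1, in which PK45H overlapped KP4 and KP4 overlapped PANC1, while PATU8988S and HPAFII did not overlap.

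The response to OVOL2 was then tested within each line against mCherry. Without M2rtTA, none of the 9 genes was called in KP4, PANC1 or PK45H. In these comparisons 6, 7 and 6 genes could be tested, 1, 1 and 2 had an unadjusted p under 0.05, and DESeq2 called 0 in each. Of all genes tested, 6.82%, 5.08% and 8.39% passed. With M2rtTA 1 gene passed in each line: OVOL2 itself in KP4 and PK45H, and GRHL3 in PANC1. The background with M2rtTA was 22.4% in KP4, 13.9% in PANC1 and 15.9% in PK45H, so 1 of 6, 1 of 7 and 1 of 6 is near the share of all genes. Apart from OVOL2, the introduced gene, none of the 9 genes was called in KP4 or PK45H. In the same fits ZEB1 fell in each line with and without M2rtTA, by 1.77 to 2.96, and CDH1, the gene of E-cadherin, rose by 1.95 to 2.93.

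**Figure D3:**
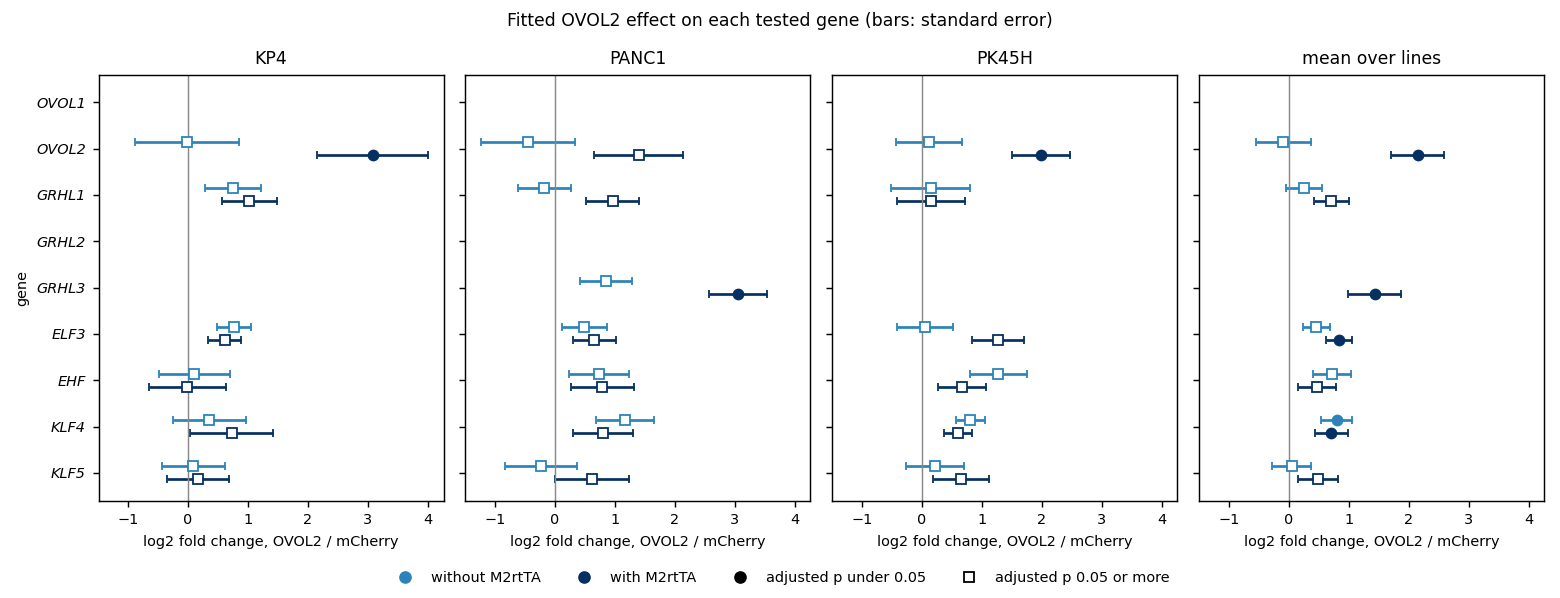
Points show the fitted log2 fold change of OVOL2 over mCherry for each gene tested, with the standard error as a bar, in KP4, PANC1, PK45H and as the mean over lines, without (light) and with (dark) M2rtTA. Filled circles have an adjusted p under 0.05; a missing point is a gene that was not tested, or the GRHL3 mean without M2rtTA, whose KP4 groups are at the floor.

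GRHL3 in PANC1 was the only gene other than OVOL2 called within a line. The OVOL2 + M2rtTA libraries held 21, 37 and 30 counts, or 5.04, 5.59 and 7.32 CPM. The mCherry + M2rtTA libraries held 4, 3 and 3 counts, or 0.889, 0.584 and 0.620 CPM, so the groups were far apart. The rise was 3.06 on the log2 scale (SE 0.49, adjusted p = 0.000827), and it passed in 7 of 7 other processings and in 6 of 6 fits without 1 library, between 2.91 and 3.27. Without M2rtTA the OVOL2 libraries held 2.17, 3.99 and 3.50 CPM against 0.905, 2.27 and 2.01 with mCherry, which overlapped (0.85 higher, adjusted p = 0.316). Between the 2 control groups, mCherry + M2rtTA was 1.33 lower than mCherry alone with no overlap, which did not pass (unadjusted p = 0.0232, adjusted p = 0.711). The OVOL2 + M2rtTA libraries were above every other PANC1 library, of which the highest had 3.99 CPM. The effect with M2rtTA exceeded that without by 2.21, which did not pass (SE 0.66, adjusted p = 0.234).

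In the other lines GRHL3 was too low for a test within the line. With M2rtTA it held 3, 11 and 3 counts in KP4 against 6, 3 and 1, and 5, 2 and 5 in PK45H against 3, 5 and 2, and both pairs of groups overlapped. Without M2rtTA it held 0, 0 and 1 counts with OVOL2 in KP4 against 2, 3 and 2 with mCherry, and 0, 2 and 0 in PK45H against 0, 0 and 9. Both KP4 groups were at the floor, so no fold change over lines is given for that arm, where GRHL3 was lower with OVOL2 and did not pass (unadjusted p = 0.0236, adjusted p = 0.0989). It was called lower in 2 of 18 fits that left out 1 library, those without PK45H OVOL2 replicate 2 or PK45H mCherry replicate 1 (adjusted p = 0.0356 and 0.0455). Averaged over lines with M2rtTA, GRHL3 rose by 1.43 (SE 0.45, adjusted p = 0.012). Most of its counts with OVOL2 + M2rtTA were in PANC1, with 88 against 17 in KP4 and 12 in PK45H. The mean therefore does not show a rise in KP4 or PK45H. Without KP4 OVOL2 + M2rtTA replicate 2, which also held most OVOL2 counts, the mean was 1.18 and did not pass (adjusted p = 0.062). The effects were not shown to differ between the lines (adjusted p = 0.198 with M2rtTA and 0.151 without).

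GRHL1, which like GRHL3 binds grainyhead sites, did not pass in any comparison of OVOL2 with mCherry. In PANC1 with M2rtTA it measured 3.84, 4.23 and 5.85 CPM against 2.67, 2.53 and 1.86, with no overlap (0.96 higher, SE 0.44, adjusted p = 0.178). In KP4 with M2rtTA it measured 3.99, 3.33 and 2.27 CPM against 1.10, 1.26 and 2.31, with an overlap of 1 library (1.02 higher, SE 0.46, adjusted p = 0.127). In PK45H the groups overlapped widely and the difference was 0.15 (SE 0.57). The mean over lines with M2rtTA, 0.71 (SE 0.28), lay just outside the threshold (adjusted p = 0.0524). It passed in 3 other processings (RLE scaling, a mean count filter and DESeq2, adjusted p = 0.0374 to 0.0469) and in 4 fits that left out 1 library.

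GRHL2 was not tested for a response to OVOL2, since it did not pass the count filter there. Summed over the 9 libraries of an arm, it had 50 counts with mCherry and 22 with OVOL2 without M2rtTA, and 21 in each with M2rtTA. With mCherry the counts were 5, 10 and 7 in KP4, 2, 3 and 4 in PANC1 and 2, 9 and 8 in PK45H. With OVOL2 they were 7, 3 and 4 in KP4, 0, 0 and 1 in PANC1 and 2, 4 and 1 in PK45H, overlapping in KP4 and PK45H and not in PANC1. The untreated libraries held 1, 5 and 5 in KP4, 1, 2 and 3 in PANC1 and 4, 5 and 3 in PK45H, and per scaled total the OVOL2 libraries overlapped them in KP4 and PK45H and were below them in PANC1. With no filter on counts GRHL2 was 1.78 lower over lines without M2rtTA (adjusted p = 0.0308). It also entered the test, and passed as lower, in 16 of 18 fits that left out 1 library (−2.45 to −1.61). The exceptions were the fits without KP4 mCherry replicate 2 or PK45H mCherry replicate 2. Those control libraries held 10 and 9 counts, the most in this arm, and GRHL2 reached the count filter through them. The fits that left out 1 library therefore give no separate support for a fall. The PANC1 OVOL2 libraries behind the GRHL2 values held 0 or 1 count.

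ELF3 kept its mean rise over lines with M2rtTA in every fit run, as OVOL2 did in every fit that tested OVOL2. In KP4 ELF3 measured 8.48, 6.5 and 8.06 CPM with OVOL2 + M2rtTA against 3.75, 5.29 and 5.97 with mCherry + M2rtTA, with no overlap. In PK45H it measured 7.60, 13.7 and 17.8 CPM against 7.29, 6.37 and 3.24, again with no overlap. In PANC1 it measured 11, 15.4 and 9.03 CPM against 6.00, 11.5 and 4.96, and 1 control library lay among the OVOL2 libraries. PK45H showed the greatest change, 1.27 (adjusted p = 0.061). It was 0.66 for PANC1 (adjusted p = 0.256) and 0.61 for KP4 (adjusted p = 0.131), so none passed alone. DESeq2 and robust dispersion called the PK45H change (adjusted p = 0.0261 and 0.0467). The mean over lines was 0.84 (SE 0.22, adjusted p = 0.00246), called in 7 of 7 other processings and 18 of 18 fits without 1 library (0.75 to 1.00). Even after this rise, PK45H at 13 ± 5.14 CPM (SD, n = 3) had the highest ELF3 of the transduced groups, against 103 ± 45.4 in HPAFII. Without M2rtTA the mean change was 0.46 (adjusted p = 0.173); in KP4 alone the groups did not overlap, at 7.57, 5.68 and 5.06 CPM against 3.74, 2.44 and 4.57 (adjusted p = 0.135).

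EHF, the other epithelial ETS factor, did not pass. Without M2rtTA in PK45H it measured 9.86, 5.88 and 3.15 CPM with OVOL2 against 1.47, 3.05 and 2.97 with mCherry, with no overlap (1.27 higher, SE 0.48, adjusted p = 0.12). That mCherry group was also below the untreated one, at 6.13, 3.99 and 8.48 CPM, by 1.29 (unadjusted p = 0.0158, adjusted p = 0.498), and the OVOL2 libraries overlapped the untreated ones. The mean over lines was 0.72 without M2rtTA (SE 0.32, unadjusted p = 0.0302, adjusted p = 0.117) and 0.48 with it (SE 0.32, adjusted p = 0.264), and in KP4 with M2rtTA the difference was −0.01 (SE 0.64). One KP4 mCherry + M2rtTA library held 1 EHF count and its mates 25 and 17.

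KLF4, a factor of differentiated surface epithelia, was the only gene called over lines without M2rtTA, at 0.80 (SE 0.25, adjusted p = 0.0239), and was called with M2rtTA as well, at 0.71 (SE 0.27, adjusted p = 0.0396). In PK45H, the line with most KLF4, it measured 10.3, 13.3 and 14.1 CPM with OVOL2 against 5.38, 7.24 and 8.00 with mCherry, with no overlap. That difference of 0.81 (SE 0.25) was just outside the threshold within the line (adjusted p = 0.0584). With M2rtTA the PK45H libraries held 18.8, 13.2 and 10.4 CPM against 9.57, 7.87 and 11.6, overlapping by 1 pair (0.60 higher, adjusted p = 0.0931). Every PK45H mCherry library was itself above the untreated libraries, at 4.97 to 5.21 CPM (0.49 higher, adjusted p = 0.674). In PANC1 with M2rtTA the levels were 1.68, 3.02 and 2.19 CPM against 1.55, 1.17 and 1.24, with no overlap, and in KP4 all groups overlapped. The call without M2rtTA was lost in 4 of 18 fits without 1 library (KP4 OVOL2 replicate 1, PANC1 OVOL2 replicate 2, KP4 mCherry replicates 1 and 3) and the call with M2rtTA in 10 of 18. The former was also lost when only the groups compared entered the fit (adjusted p = 0.0526), and the latter with no count filter (adjusted p = 0.0621).

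KLF5, which drives proliferation in many epithelia, did not pass in any line. Its PK45H libraries with M2rtTA ranged from 5.32 to 17.2 CPM with OVOL2 and from 3.75 to 11.5 with mCherry, a spread wider than the 0.65 difference in log2 (SE 0.47). Over lines the KLF5 difference was 0.05 without M2rtTA (SE 0.33) and 0.49 with it (SE 0.33, adjusted p = 0.272).

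Averaged over lines, then, 1 of 7 tested genes was called without M2rtTA, where 18.1% of all genes were, and 4 of 7 with M2rtTA (OVOL2, ELF3, GRHL3 and KLF4, all higher), where 32.9% were. OVOL2 is included in these counts and medians although it is the introduced gene, and its rise cannot be told apart from introduced RNA. Apart from OVOL2, the genes called with M2rtTA were ELF3, GRHL3 and KLF4. Of these, GRHL3 could be tested within PANC1 only, and its mean does not show a rise in the other lines. The 7 tested genes had a positive change in 7 of 7 cases with M2rtTA, with a median of 0.71, beside 0.03 over all genes. Without M2rtTA 5 of 7 were positive, with a median of 0.26, and OVOL2 and GRHL3 were the 2 below 0. The sign of GRHL3 there rests partly on groups at the floor. For none of the 7 was the effect shown to differ between lines: 0 passed in either arm (1 with an unadjusted p under 0.05 in each), against 2.74% and 7.56% of all genes. DESeq2 called 1 such difference, GRHL3 without M2rtTA (adjusted p = 0.0491), and 0 with M2rtTA. Nor was the effect with M2rtTA shown to differ from that without it, with 0 genes called in any line, 1 in each at an unadjusted p under 0.05, and 0 by DESeq2. Of all genes 1.43%, 0.136% and 1.6% passed there in KP4, PANC1 and PK45H. Among the controls, between mCherry and untreated cells 0 of the 9 genes passed in KP4, PANC1 and PK45H, where 0%, 0.598% and 0.00736% of all genes did. Between mCherry with and without M2rtTA 0 of the 9 passed, where 0%, 0% and 0.0294% of all genes did. At an unadjusted p under 0.05 there was 1 in KP4 (ELF3) and 1 in PK45H (EHF) for the former, and 1 in PANC1 (GRHL3) and 1 in PK45H (EHF) for the latter, and DESeq2 called 0 in all 6.

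Markers of other cells were compared in the same groups. The summed level of the 5 fibroblast markers was higher in every OVOL2 + M2rtTA library than in any mCherry + M2rtTA library of its line: 41.8 to 51.1 against 12.1 to 23.6 CPM in KP4, 46.3 to 67.3 against 22.6 to 34.5 in PANC1 and 25.8 to 31.9 against 11.2 to 12.9 in PK45H. COL1A1 made up most of it, with a highest group mean of 48.1 CPM, whereas LUM and PDGFRB stayed at or under a mean of 0.251 and 0.445 CPM. Without M2rtTA the ranges did not overlap in KP4 either, at 22.6 to 25.7 against 15 to 19.9 CPM, and did in PANC1 and PK45H. The part of these markers in the changes described was not tested.

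The promoters shown are those of the 3 genes other than OVOL2 whose mean change over lines with M2rtTA was called. Within a line, only GRHL3 in PANC1 was called among these 3, so a rise in every line was not shown. RefSeq windows of 300 bases, from 250 before to 50 after a gene's start on GRCh38.p14, were examined for 6 of the 9 genes. No window of the remaining genes was examined. Capitals mark matches on either strand to CAGGTG (the E-box bound by ZEB factors, CACCTG on the other strand); CCGTTA (OVOL core), ACCGGTT (grainyhead core), CCACACCC (Krüppel-like) and CCGGAAGT (ETS) were searched too, and no match overlapped another.
GRHL3, chr1:24319107-24319406, plus strand: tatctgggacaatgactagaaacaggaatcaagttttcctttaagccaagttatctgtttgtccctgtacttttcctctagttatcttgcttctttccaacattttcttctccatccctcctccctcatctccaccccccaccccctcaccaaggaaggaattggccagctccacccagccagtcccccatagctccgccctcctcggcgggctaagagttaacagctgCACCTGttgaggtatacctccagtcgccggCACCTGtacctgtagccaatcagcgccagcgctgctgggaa
ELF3, chr1:202010337-202010636, plus strand: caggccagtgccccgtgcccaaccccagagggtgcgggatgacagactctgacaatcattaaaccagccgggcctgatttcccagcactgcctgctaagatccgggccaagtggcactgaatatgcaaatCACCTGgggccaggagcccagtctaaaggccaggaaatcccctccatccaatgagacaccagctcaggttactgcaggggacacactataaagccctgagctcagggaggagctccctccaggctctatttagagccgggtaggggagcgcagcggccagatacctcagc
KLF4, chr9:107489720-107490019, minus strand: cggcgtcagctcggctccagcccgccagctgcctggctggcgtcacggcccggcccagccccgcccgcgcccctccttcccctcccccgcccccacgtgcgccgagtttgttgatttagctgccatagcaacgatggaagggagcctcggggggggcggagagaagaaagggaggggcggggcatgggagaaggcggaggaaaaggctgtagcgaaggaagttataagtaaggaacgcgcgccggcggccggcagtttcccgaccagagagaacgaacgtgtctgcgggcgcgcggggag
The GRHL3 window held 2 E-boxes, the first starting 21 bases before the start and the second at base 10 after it, and the ELF3 window held 1, starting 120 bases before the start. The KLF4 window, a second GRHL3 window and those of GRHL1, EHF and KLF5 held none of the 5 motifs. Among 35116 windows of this length 20.6% held the E-box, 3.07% the OVOL core, 0.772% the grainyhead core, 3.28% the Krüppel-like motif and 4.14% the ETS motif. A match is a description of the letters and not a measured binding site.

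Genes near the 9 in family or function were described by lists over lines with M2rtTA. Of 25 relatives of these families, 19 were tested, with 3 higher and 2 lower and a median change of 0.075, a smaller share than the 32.9% of all genes called in this comparison. TFCP2L1, a relative of the grainyhead-like genes, rose by 0.76 (SE 0.23, adjusted p = 0.00997) and KLF10, a Krüppel-like gene induced by TGF-β, by 0.43 (SE 0.14, adjusted p = 0.0173). ELF4, an ETS gene of blood and epithelial cells, fell by 0.36 (SE 0.09, adjusted p = 0.00268) and KLF12, a repressor, fell by 0.91 (SE 0.25, adjusted p = 0.00551). The ELF4 effect differed between lines (adjusted p = 0.0239, edgeR quasi-likelihood test) and was positive in KP4. Of 12 tested regulators of epithelial identity outside these families, 3 rose and 0 fell, with a median of 0.30, again a smaller share than the 32.9% of all genes. Among these, the pancreatic factor GATA6 rose by 0.76 (adjusted p = 0.00209) and TFAP2A, a factor of surface ectoderm, by 0.40 (adjusted p = 0.00056). The GATA6 mean hides a difference between lines (adjusted p = 0.0107, edgeR quasi-likelihood test). GATA6 was higher with OVOL2 in KP4 and PANC1 and lower in PK45H.

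Of 5 tested repressors that drive EMT, from the ZEB, SNAI and TWIST families, 1 fell and 1 rose with M2rtTA, beside 32.9% of all genes called. ZEB1 fell by 1.95 (SE 0.22, adjusted p = 1.44e-08) with M2rtTA and by 2.64 without it (SE 0.24, adjusted p = 1.74e-10). SNAI1, another E-cadherin repressor, rose by 1.26 with M2rtTA (SE 0.48, adjusted p = 0.041), a call kept in 12 of 24 other fits. Of 16 genes that carry out epithelial adhesion, splicing and surface proteolysis, 12 rose and 0 fell with M2rtTA, with a median of 1.45, and 10 rose without it, with a median of 1.25. Over all genes 32.9% were called with M2rtTA and 18.1% without it. EPCAM rose by 2.26 (SE 0.11, adjusted p = 6.14e-18), SPINT1, a protease inhibitor, by 2.24 and the claudin gene CLDN7 by 1.55, the last with SE 0.16. The summed epithelial markers, which include EPCAM, CDH1 and 4 keratins, did not rise in every line. With M2rtTA they measured 952 to 1050 CPM with OVOL2 against 609 to 617 with mCherry in KP4. In PK45H these ranges were 4550 to 4670 against 1870 to 2040, and in PANC1 1950 to 2360 against 2220 to 2560, which overlapped. These lists share the libraries and the contrast with the 9 genes, whose median was 0.71, and no test between lists was made.

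**Figure D4:**
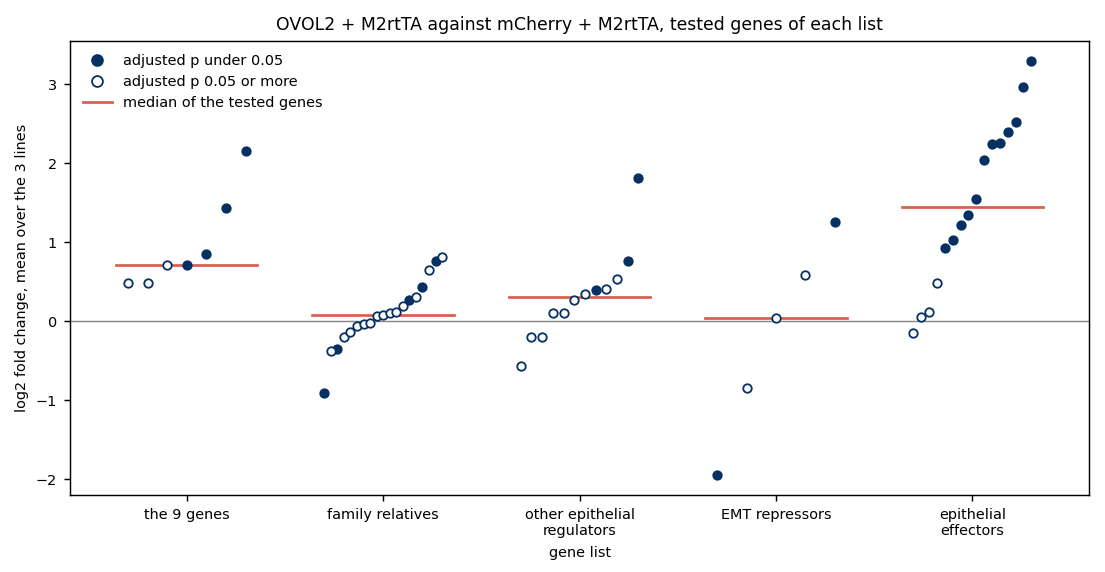
Each point is a tested gene, placed by its mean log2 fold change over KP4, PANC1 and PK45H (OVOL2 + M2rtTA against mCherry + M2rtTA), with filled points at an adjusted p under 0.05 and a bar at each list's median. The medians are 0.71 for the 9 genes, 0.075 for relatives, 0.30 for other regulators, 0.03 for EMT repressors (repressors that drive EMT) and 1.45 for epithelial effectors.

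Across the 17 groups, the genes whose mean log2 CPM followed each gene most closely were taken from 10274 genes with a mean of at least 5 CPM. For ELF3 these were LAD1 and GPX2 (Pearson r = 0.969 each) and CEACAM6 (0.962). For EHF they were TTC22 (0.960), LAMA3 (0.948) and PRR15 (0.935), and for KLF5 DNAJC22 (0.948), SAMD5 (0.937) and FERMT1 (0.932). OVOL2 was followed by SLC6A20 (0.920), ACY1 (0.914) and MISP (0.910), and KLF4, which was highest in PK45H, by NUCB1 (0.949), PTPRA (0.941) and PLEC (0.940). The less abundant genes had looser neighbours: FOXRED1 (0.885), VSIG1 (0.859) and PTPN18 (0.853) for GRHL2, ND1 (0.879), PANK3 (0.854) and RETREG2 (0.838) for GRHL1, and CCNJL (0.858), ZNF264 (0.856) and LINS1 (0.848) for GRHL3. Among the 9 genes, ELF3, which had 10 counts or more in every library, correlated at 0.915 with EHF, 0.894 with OVOL1, 0.839 with OVOL2, 0.799 with KLF5, 0.661 with GRHL2, 0.416 with GRHL3 and 0.115 with each of GRHL1 and KLF4. The OVOL1 value rests on HPAFII and PATU8988S, since OVOL1 was at the floor in the other 15 groups. The 17 means come from 5 lines and are not independent, and these values are given as a description.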

How the data were processed

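Bulk RNA of 51 libraries was read by PLATE-seq, and the authors deposited 1 table of raw counts per gene; kallisto 0.44.0 and GRCh38 are named in the submitters' processing notes, without their role. Whether molecular identifiers or strand were used is not given in the sources used here. All 51 columns were matched to samples by title. The 9 genes, the gene lists and the tests were chosen with earlier results of these data known.

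Counts were tested with edgeR 4.0.16 (R 4.3.3, limma 3.58.1): filterByExpr by group, TMM scaling, quasi-likelihood fits and Benjamini-Hochberg adjustment over all genes tested, with a threshold of 0.05. Each transduced line was fitted on its 15 libraries, means over lines and differences between lines on 45, and untreated lines on 15. CPM used TMM-scaled library totals, and a prior count of 2 served correlations only. Named list genes are at most 4 per list with the smallest p over lines with M2rtTA among those called, with ZEB1 and CDH1; the 3 nearest genes by correlation are named for each of the 9 genes that passed the filter. Alternatives tried were DESeq2 1.42.0, RLE scaling, a replicate block, robust dispersion, a filter at a mean count of 10 or none, fits on only the groups compared, and leaving out each library in turn. The scripts were tested on simulated data. Intervals and floors cover counting error only. The values of 1 named list gene are not reported here.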

Additional observations from a re-analysis of the deposited data

Results flagged for a closer look

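In 2 genes outside the 9, the OVOL2 effect differed between lines by the test of that difference (edgeR quasi-likelihood). Without M2rtTA, the ELF4 change was 0.72 in KP4, against −0.08 in PANC1 cells and −0.21 in PK45H cells (adjusted p = 0.0304). With M2rtTA these were 0.12, −0.37 and −0.82 (adjusted p = 0.0239). GATA6 with M2rtTA was 1.07 higher in KP4 and 1.58 higher in PANC1 cells, and its change was −0.35 for PK45H (adjusted p = 0.0107).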

How the results depend on the processing

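The count of the 9 genes called kept its value within 1.5 times in every alternative run, except as follows. For OVOL2 against mCherry with M2rtTA, KP4 went from 1 to 0 with a mean count of at least 10 or only the groups compared (0 to 1 with a library left out), and PK45H to 0 with a mean count of at least 10 and to 2 with DESeq2 or robust dispersion (0 to 2). The mean over lines without M2rtTA went from 1 to 2 with no filter and 0 with only the groups compared (1 to 3), and the difference between lines from 0 to 1 with DESeq2. Of untreated cells, PATU8988S against HPAFII went from 2 to 1 with only the groups compared (1 to 2). KP4 against the other transduced lines ranged from 0 to 1 without a library. PANC1 went from 1 to 0 with a mean count of at least 10 or only the groups compared, to 4 with DESeq2 and to 2 with robust dispersion (0 to 2), and PK45H from 1 to 2 with DESeq2 (1 to 2). With a mean count of at least 10, OVOL2 was not tested in KP4 or PK45H, where it held 142 and 134 counts over 15 libraries. GRHL3 was likewise not tested in either fit that gave 0 for untreated PANC1. The cause of the other changes was not tested. No fold change of the 9 genes that was called changed sign. For all untreated lines together, only the groups compared is the fit already used and gives no separate value.

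Same-numbered replicates did not deviate together (mean correlation −0.007 in KP4, 0.013 in PANC1 and −0.016 in PK45H), so the numbers were not taken as pairs. With the replicate block the KP4 count with M2rtTA went from 1 to 0 (OVOL2, 2.83, adjusted p = 0.0618) and PATU8988S against HPAFII from 2 to 1. Of 15 libraries each, 3, 6 and 2 correlated best with their own number.

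Counts over all genes moved by more than 1.5 times mainly with only the groups compared, DESeq2 and a library left out. For OVOL2 against mCherry without M2rtTA, only the groups compared gave 532 for 932 in KP4, 302 for 671 in PANC1 and 628 for 1139 in PK45H, and with M2rtTA 1424 for 2153 in PK45H. For the difference by M2rtTA it gave 116 for 195, 8 for 18 and 128 for 217, where DESeq2 gave 455, 131 and 503 and the block 112, 10 and 116; no filter gave 114 in KP4. For mCherry against untreated cells DESeq2 gave 11 for 0, 191 for 79 and 26 for 1, only the groups compared 23 for 79 in PANC1, and no filter, the block and robust dispersion 2 for 1 in PK45H. For M2rtTA alone DESeq2 gave 16, 23 and 75 for 0, 0 and 4, and only the groups compared 1 for 4. Between lines, only the groups compared gave 246 for 409 and 487 for 1129, DESeq2 649 for 409, and between PATU8988S and HPAFII only the groups compared gave 1714 for 2783. Without a library, OVOL2 against mCherry without M2rtTA called 471 to 566 genes for KP4, 343 to 422 for PANC1, and for PK45H 701 to 943. With M2rtTA the PK45H count of 2153 ranged from 1387 to 1694. The differences by M2rtTA ranged from 78 to 177 for KP4, 6 to 19 for PANC1, and for PK45H 93 to 272. For mCherry against untreated cells the ranges were 0 to 1, 27 to 60 and 0 to 5, and for M2rtTA alone 0 to 1, 0 to 14 and 2 to 18. Untreated KP4 against the other transduced lines called 2050 to 2802 genes for 3081.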
